A study of Homo sapiens with 15 samples.

Results

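The DNA replication genes were followed through knockdown and rescue of EWS/FLI in A673 cells, a Ewing sarcoma line that carries this fusion of EWSR1 and FLI1. The set was a fixed list of 40 genes by name, of which 39 were found among the 57820 genes counted and all 39 passed the filter on low counts, which kept 28793 genes. UHRF1 was not analysed here. RNA was sequenced from 15 libraries in 5 conditions, with 3 replicates each. The cells received retrovirus with an shRNA on day 1 and retrovirus with a cDNA or the empty vector on day 5, and selection in 2 µg/mL puromycin and then also 400 µg/mL hygromycin ran to day 16. In iLuc the shRNA was against luciferase, so endogenous EWS/FLI was left in place, and the cDNA vector was empty. In iEF the shRNA was against EWS/FLI, and the cDNA vector was again empty. The other conditions had the iEF shRNA and a rescue cDNA: WT-EF was wildtype EWS/FLI, Δ22 lacked the EWS domain, and DAF carried tyrosine to alanine changes in the EWS domain. All conditions come from 1 cell line, as pools of selected cells. The labels number the replicates and do not say whether they were separate transductions. The paper's scheme for 1 replicate begins with transduction, and its colony counts of the profiled cells stand for 3 independent experiments. The p-values measure the spread between these samples.

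Copying the genome starts with licensing, when the origin recognition complex (ORC), CDC6 and CDT1 load the ring of MCM2 to MCM7 onto DNA. The kinase of CDC7 and DBF4, together with MCM10, CDC45 and the GINS complex, turns that ring into a running helicase. Polymerases then extend primers on both strands, held to DNA by the PCNA clamp that the RFC complex loads, while RPA coats the single strands and FEN1 and LIG1 finish the lagging strand. Most of these genes are transcribed as cells enter S phase, under the control of E2F factors and their pocket protein partners.

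Because E2F factors are the best known regulators of these genes, the start sites were read for an E2F motif. RefSeq promoter windows of 300 bases, 250 before and 50 after the start, matched 35 of the 40 genes in 46 windows (build GRCh38.p14). MCM4, MCM5, GINS4, RPA2 and RPA3 had no entry. The motif was any of TTTCCCGC, TTTCGCGC, TTTGCCGC or TTTGGCGC on either strand, and matches may overlap each other. It was present in windows of 20 of the 35 genes, or 45.7% of their windows against 3.31% of all 35116 windows. A match is a description of the letters and not a shown binding site. Stretches of 180 bases from 150 before to 30 after the start are shown 5′ to 3′ on the gene's strand, with E2F matches in capitals, for members the results below turn on. The window was the first listed with a match, or the first listed where there was none.
They are MCM6 (chr2:135876414-135876593, minus strand), MCM2 (chr3:127598261-127598440, plus strand), GINS2 (chr16:85688925-85689104, minus strand), E2F2 (chr1:23531204-23531383, minus strand), E2F1 (chr20:33686356-33686535, minus strand) and TK1 (chr17:78187175-78187354, minus strand).
MCM6: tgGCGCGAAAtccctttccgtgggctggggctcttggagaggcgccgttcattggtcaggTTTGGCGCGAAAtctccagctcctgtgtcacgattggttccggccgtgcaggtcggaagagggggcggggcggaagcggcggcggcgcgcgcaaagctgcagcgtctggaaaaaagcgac
MCM2: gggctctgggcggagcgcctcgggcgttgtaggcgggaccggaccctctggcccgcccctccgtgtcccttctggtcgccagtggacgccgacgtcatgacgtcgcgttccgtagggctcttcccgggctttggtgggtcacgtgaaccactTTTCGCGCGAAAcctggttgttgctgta
GINS2: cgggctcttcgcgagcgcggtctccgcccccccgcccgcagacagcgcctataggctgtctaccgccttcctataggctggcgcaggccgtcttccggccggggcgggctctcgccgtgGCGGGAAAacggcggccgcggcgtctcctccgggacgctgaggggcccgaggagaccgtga
E2F2: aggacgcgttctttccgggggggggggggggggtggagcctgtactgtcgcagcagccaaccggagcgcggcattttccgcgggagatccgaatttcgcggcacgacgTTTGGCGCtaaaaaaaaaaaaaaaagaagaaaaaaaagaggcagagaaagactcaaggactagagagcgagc
E2F1: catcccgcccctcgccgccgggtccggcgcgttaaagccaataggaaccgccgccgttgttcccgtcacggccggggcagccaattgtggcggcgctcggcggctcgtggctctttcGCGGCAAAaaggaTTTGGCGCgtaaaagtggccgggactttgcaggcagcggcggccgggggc
TK1: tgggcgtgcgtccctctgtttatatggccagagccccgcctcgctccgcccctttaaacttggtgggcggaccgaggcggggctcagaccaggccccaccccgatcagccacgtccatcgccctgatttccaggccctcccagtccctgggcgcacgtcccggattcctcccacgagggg
The MCM6 stretch holds 3 matches, of which a pair overlaps, and MCM2 holds an overlapping pair just after the start. The E2F1 gene itself has 2 matches upstream of its start. TK1, shown because it moved the other way from most members, has no match in this window.
The CCAAT box (CCAAT) was found in windows of 21 of the 35 genes, against 39.7% of all genes. The ETS motif CCGGAAGT was found in 3 genes, against 4.95% of all genes, and the pair GGAAGGAA in 0, against 4.5%. The CHR motif of mitotic genes (TTTGAA or TTCGAA) was found in 3 genes, against 19.5%.

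Library totals ran from 28659475 to 41859880 counts, with a median of 32943231, and the lowest count of any member in any library was 213 (E2F2, DAF replicate 1). Levels are in CPM, counts divided by a library total scaled by trimmed mean of M-values (TMM). FLI1, the 3′ partner of the fusion, was at 49.4 ± 2.6 CPM in iLuc and 14.6 ± 1.4 in iEF (SD, n = 3 each). It was at 17.6 ± 1.4 in WT-EF, 31.2 ± 6.1 in Δ22 and 24.3 ± 2.6 in DAF. These gene counts do not separate the endogenous fusion from the construct. According to the paper the shRNA targets the 3′ untranslated region of EWS/FLI. Whether the rescue cDNAs hold that region is not stated there. FLI1 counts in iLuc and in a rescue may therefore cover unlike lengths of RNA. Of the Ewing sarcoma markers, STEAP1 was at 171.8 CPM or more in iLuc and 43.1 or less in iEF on plain library totals. On the same scale NR0B1 averaged 59.1 in iLuc and 5.36 in iEF, and NKX2-2 5.61 and 0.876. CCND1 averaged 1873 and 1673, with ranges that overlap. CD99 had at most 3 counts in any library, and whether its reads were lost in mapping or counting was not tested. Markers of other cells were near 0, with CD3E at 1 count or less, KRT5 at 3 or less and ALB at 6 or less, while PTPRC reached 0.944 CPM and EPCAM 1.03. A gene was called higher or lower where the Benjamini-Hochberg adjusted p of edgeR's quasi-likelihood test, over all genes tested, was under 0.05.

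The plot of levels in each library gives the whole pattern. iLuc had the highest mean for 32 of the 39 members, iEF for 4 and WT-EF for 3. DAF had the lowest mean for 34, Δ22 for 3 and WT-EF for 2. The ratio of the iLuc mean to the DAF mean ran from 0.924 to 5.73, with a median of 2.01. Averaged over the 39 genes, log2 CPM relative to each gene's mean was 0.51 ± 0.06 in iLuc, 0.19 ± 0.10 in WT-EF, 0.09 ± 0.11 in iEF, -0.34 ± 0.11 in Δ22 and -0.45 ± 0.03 in DAF (SD, n = 3 each). The WT-EF and iEF libraries overlapped on this average, and every Δ22 and DAF library lay below every iEF library. In bulk RNA, fewer cells in S phase and less of these RNAs per cell cannot be told apart.

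**Figure D1:**
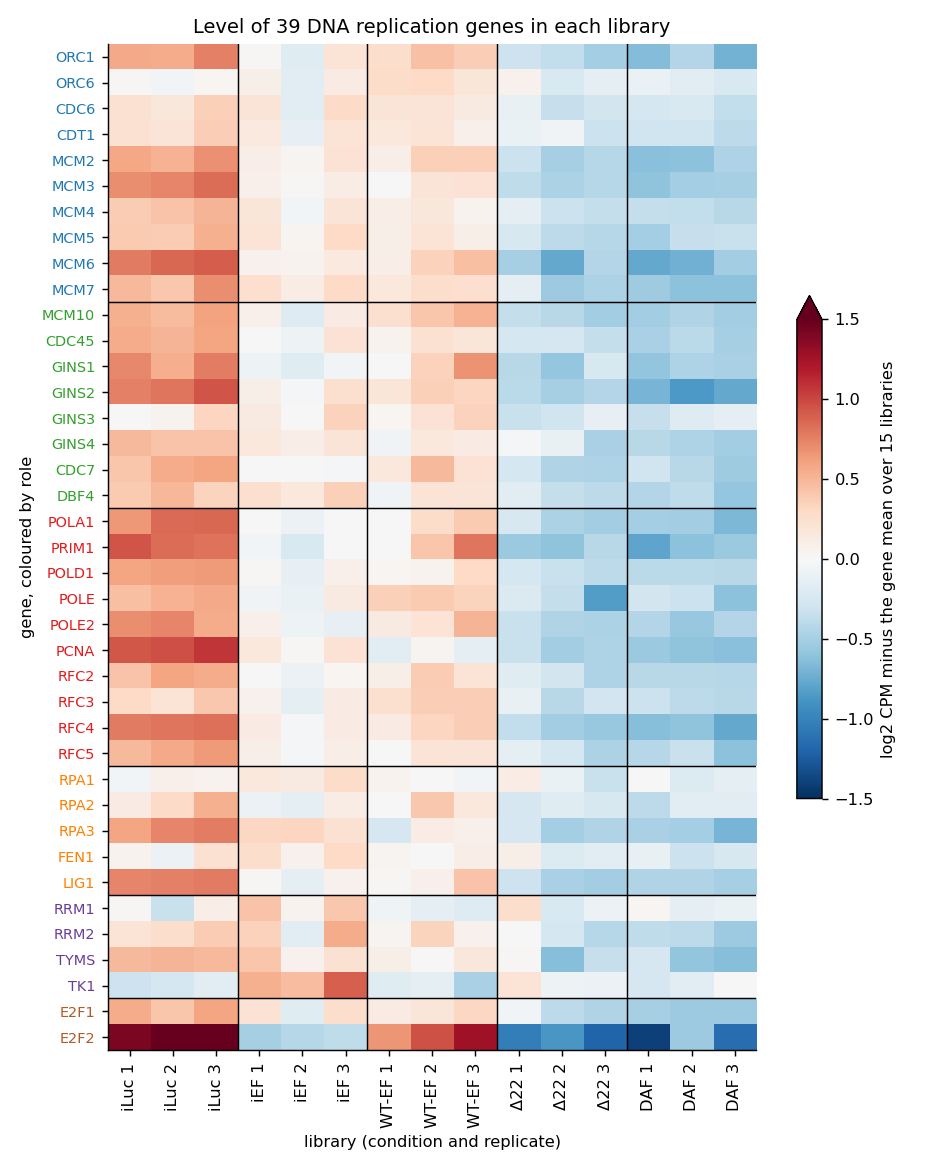
Each row is a gene, coloured by role, and each column a library; colour gives log2 CPM minus the gene's mean over the 15 libraries. Most rows are red in the 3 iLuc libraries and blue in the Δ22 and DAF libraries, and TK1 is red in iEF.

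The first comparison asked what endogenous EWS/FLI does to these genes, by setting iLuc against iEF. With endogenous EWS/FLI present, 28 of 39 members were higher and 2 were lower, where 19.5% of all genes tested were higher and 22.1% lower. The median log2 fold change was 0.48 over the members and 0.04 over all genes. In all 3 replicate sets 31 members were higher. The share of all genes with the same direction in all 3 sets was not counted, here or in later comparisons. By role, 7 of 10 licensing genes were higher, as were 6 of 8 helicase and origin firing genes, all 10 polymerase, primase, clamp and loader genes, 3 of 5 RPA and lagging strand genes, and both E2F genes. Of the 4 nucleotide supply genes, 0 were higher and 2 were lower.

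E2F2, an activator E2F (ENSG00000007968, GRCh37 chr1:23832930-23857725, minus strand), moved most. Its CPM in the 3 replicates were 52.5, 62.7 and 56.6 in iLuc against 13.9, 14.7 and 15.1 in iEF, with no overlap, a log2 fold change of 1.97 ± 0.16 (SE, edgeR adjusted p = 1.84e-07). E2F1 rose less, from 28.4, 21.4 and 29.1 in iEF to 35.8, 32.5 and 36.9 in iLuc (log2 0.42 ± 0.12, edgeR adjusted p = 0.00999). PRIM1, the catalytic primase subunit, was at 77.5, 71.9 and 70.6 in iLuc against 39.1, 34.3 and 39.99 in iEF, a log2 fold change of 0.96 ± 0.13. For these genes the iLuc and iEF libraries did not overlap. Of PRIM1's exon length, 15.1% is shared with NACA or another gene on the same strand.
PCNA (ENSG00000132646, GRCh37 chr20:5095599-5107272, minus strand) was at 483.4, 494.1 and 533.4 CPM in iLuc and 283.0, 256.0 and 294.2 in iEF, a log2 fold change of 0.86 ± 0.09 (edgeR adjusted p = 1.73e-06). POLA1, the catalytic subunit of the polymerase that extends primers, gave 0.82 ± 0.11, and LIG1, the ligase that joins Okazaki fragments, gave 0.78 ± 0.10. Within the GINS complex GINS1 (0.78 ± 0.11) and GINS2 (0.73 ± 0.09) rose, GINS4 was just inside the threshold (0.29 ± 0.11, edgeR adjusted p = 0.0468, called in 6 of 17 alternatives, which change the tool, the scaling or the filter or leave out libraries), and GINS3 was not called.
All 6 subunits of the MCM ring were higher, with unequal sizes. MCM6 (ENSG00000076003, GRCh37 chr2:136597196-136634013, minus strand) was at 179.2, 190.1 and 196.0 CPM in iLuc against 109.5, 108.5 and 115.3 in iEF (log2 0.76 ± 0.09), and MCM3 followed at 0.69 ± 0.08. MCM5 changed least, by 0.25 ± 0.09 (edgeR adjusted p = 0.0362). Over 17 alternatives the call was lost in 9 for MCM5, 7 for MCM7 (0.31 ± 0.10) and 3 for MCM4 (0.33 ± 0.09), and in 0 for MCM2, MCM3 and MCM6, most of the losses with a library or replicate set left out.
TK1 and RRM1 went the other way. TK1, thymidine kinase of the salvage route to dTTP (ENSG00000167900, GRCh37 chr17:76170172-76183314, minus strand), was at 59.5, 61.5 and 66.0 CPM in iLuc against 107.0, 101.6 and 137.7 in iEF. Its log2 fold change was -0.89 ± 0.13 (edgeR adjusted p = 6.26e-05). RRM1, the large subunit of ribonucleotide reductase, was at 357.6, 278.7 and 376.1 in iLuc against 474.7, 366.3 and 465.1 in iEF, ranges that overlap (log2 -0.37 ± 0.10, edgeR adjusted p = 0.00847). On plain library totals, which move the median of all genes to 0.25, its change of -0.15 was not called.

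The WT-EF comparison asked how far the exogenous wildtype fusion restores this. Against iEF, 9 of 39 members were higher and 2 lower, where 12.9% of all genes tested were higher and 17% lower, and the members' median was 0.11 log2 against -0.01 for all genes. This count depends on the scaling. On plain library totals, an alternative added after the data were seen that moved the median of all genes to 0.22, 26 members were higher and 1 lower. There 6376 of all genes tested were higher and 3412 lower, against 3704 and 4898 in the main fit. Without WT-EF replicate 1 the count of calls was 17, without iEF replicate 2 it was 6 and without the second replicate set it was 4. Over all genes these settings called 3619 higher and 4409 lower, 3097 and 4158, and 2180 and 3441.
The genes higher in WT-EF were ORC1, MCM10, GINS1, CDC7, PRIM1, POLE, POLE2, RFC3 and E2F2, all of which were also higher in iLuc against the same iEF libraries. Of these, E2F2 was called in all 17 alternatives and MCM10, GINS1 and PRIM1 in 16, while RFC3 was called in 13, ORC1 in 12, POLE2 in 11, CDC7 in 10 and POLE in 9. E2F2 was at 31.1, 38.2 and 47.6 CPM in the 3 WT-EF replicates, all above iEF and below iLuc (log2 1.41 ± 0.16 against iEF, edgeR adjusted p = 1.03e-05). PRIM1 was at 40.2, 53.6 and 70.0 in WT-EF, so that the lowest library stood next to iEF and the highest next to iLuc. GINS1 had the same spread, at 97.6, 123.9 and 155.0. ORC1, the ATPase of the origin recognition complex, was at 67.8, 76.4 and 72.8 against 57.0, 49.7 and 65.0 in iEF (log2 0.34 ± 0.11, edgeR adjusted p = 0.0322).
The MCM ring was not called in WT-EF for any of its 6 subunits. MCM2 gave 0.15 ± 0.08, MCM3 0.07 ± 0.08 and MCM6 0.21 ± 0.09 (edgeR adjusted p from 0.0934 to 0.581 over these genes). GINS2 gave 0.18 ± 0.09. PCNA was at 226.1, 261.5 and 230.6 CPM in WT-EF, a log2 fold change of -0.21 ± 0.09 (edgeR adjusted p = 0.0846), where iLuc had been at 0.86; on plain library totals it was 0.02, so its sign in WT-EF depends on the scaling. TK1 was lower in WT-EF as in iLuc, at 65.0, 66.9 and 52.5 (log2 -0.90 ± 0.13), and so was RRM1, at 338.4, 319.1 and 307.0 (log2 -0.43 ± 0.10). The RRM1 call was lost on plain library totals, at -0.20, and without the first or the third replicate set, at -0.40 and -0.29.
Set directly against iLuc, WT-EF had 0 members higher and 21 lower, where 10.7% of all genes tested were higher and 9.03% lower, with a median of -0.31. PCNA differed most, by -1.07 ± 0.09 (edgeR adjusted p = 3.21e-06), followed by RPA3, the smallest RPA subunit, at -0.71 ± 0.11, and MCM3 at -0.62 ± 0.08. The value for E2F2 was -0.56 ± 0.15. FLI1 was lower in WT-EF than in iLuc (log2 -1.49 ± 0.10), on counts that may cover unlike lengths of its RNA, and its part in these differences was not tested. Without WT-EF replicate 1, 9 members were called and without the iLuc replicates in turn 13, 11 and 13. Without the first replicate set the count was 8, and without the second 7. A fit of the 6 libraries compared called 12. Over all genes tested the main fit called 3078 higher and 2601 lower. Without WT-EF replicate 1 these were 2232 and 1295. Without the iLuc replicates in turn they were 2372 and 1497, 2338 and 1555, and 3063 and 1851. Without the first replicate set they were 1133 and 698, without the second 1121 and 947, and in the 6 libraries 2132 and 1578.

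**Figure D2:**
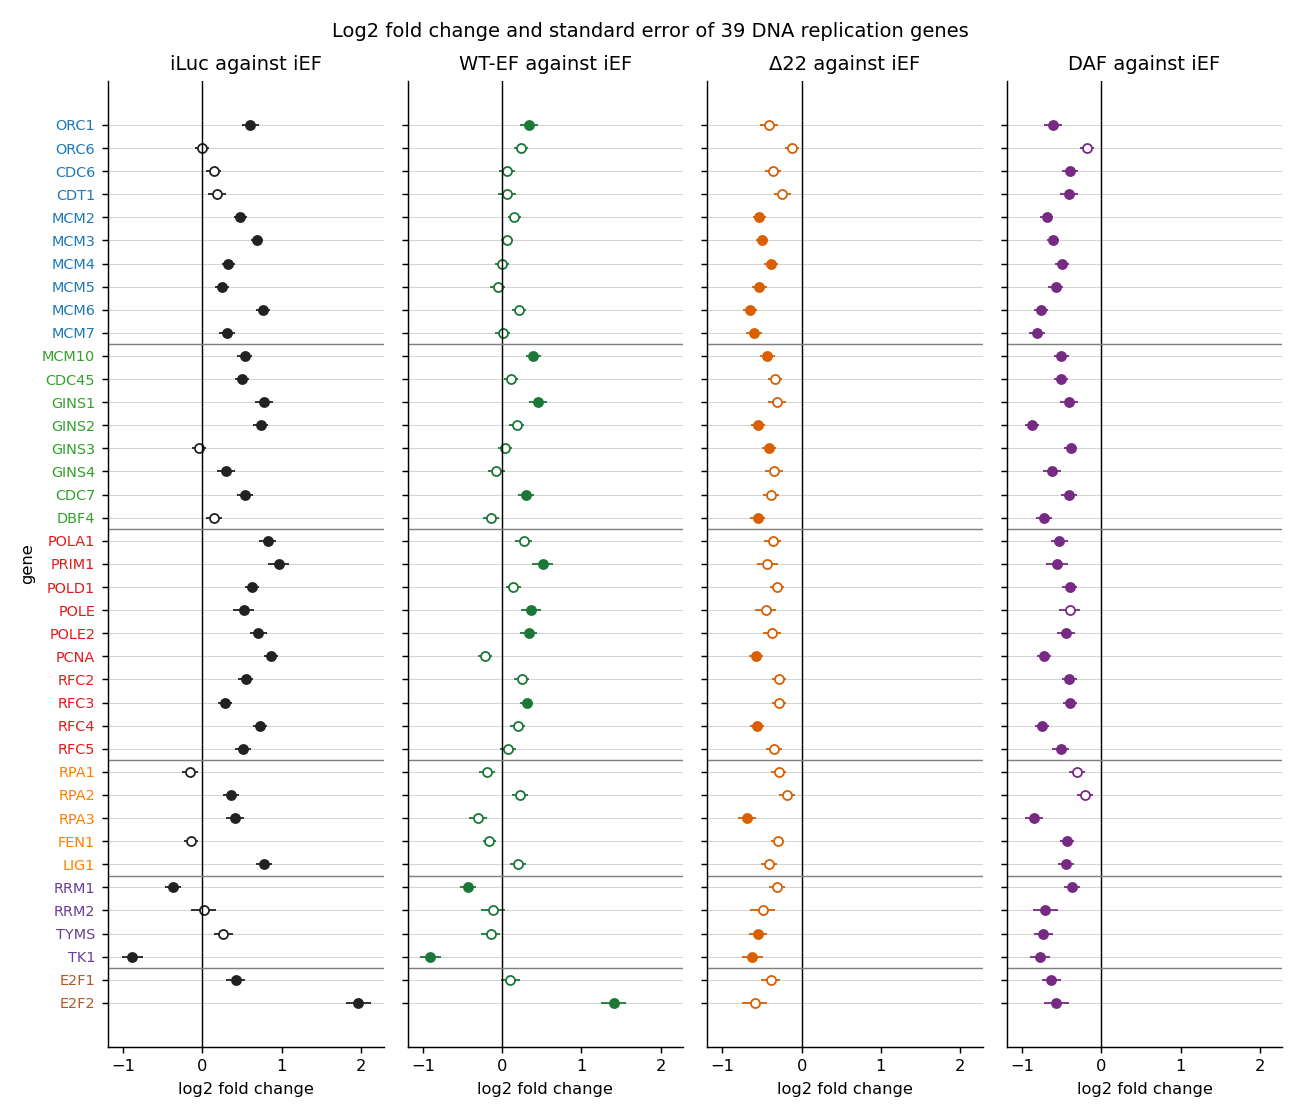
Dots are edgeR log2 fold changes of the 39 genes against iEF with bars of 1 standard error; filled dots have an adjusted p under 0.05 and open dots do not. Of the iLuc dots 33 lie right of 0, WT-EF dots straddle it, and all 39 dots of Δ22 and of DAF lie left of it.

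Against iEF, the DAF cells had 0 members higher and 35 of 39 lower, where 5% of all genes tested were higher and 6.19% lower. The median log2 fold change was -0.51 over the members and 0.00 over all genes. In all 3 replicate sets 38 of the 39 members were lower, with the share of all genes not counted. The count of calls was 23 without iEF replicate 1, 20 without DAF replicate 3, 15 without the first replicate set and 21 without the second, all of them lower. Over all genes tested these settings called 942 higher and 1046 lower, 755 and 896, 746 and 606, and 492 and 576. The main fit called 1440 and 1783. Of 20 mitosis genes 18 were lower in DAF as well, with a median of -0.58, and the part of a change in cell cycling in these values was not tested. FLI1 was higher in DAF than in iEF (log2 0.74 ± 0.10) and in Δ22 than in iEF (1.09 ± 0.10), and its part was not tested either.
GINS2 fell most, with 20.7, 18.5 and 19.7 CPM in DAF against 35.7, 32.8 and 39.6 in iEF (log2 -0.88 ± 0.09, edgeR adjusted p = 4.95e-05). RPA3 was at 21.97, 21.7 and 18.9 against 38.3, 38.5 and 35.9 (log2 -0.85 ± 0.11). All 6 MCM subunits fell, from -0.50 ± 0.09 for MCM4 to -0.81 ± 0.10 for MCM7. MCM6 was at 61.3, 63.3 and 72.7 in DAF, below all 3 iEF libraries.
PCNA was at 172.6, 166.7 and 164.6 CPM in DAF, a log2 change of -0.72 ± 0.09. RFC4, a subunit of the clamp loader, gave -0.75 ± 0.09. DBF4, the activating subunit of the CDC7 kinase, gave -0.72 ± 0.10 although it was not called in iLuc or WT-EF. All 4 nucleotide supply genes fell, TK1 by 0.77 and TYMS, thymidylate synthase, by 0.73 on the log2 scale. Of TYMS exon length 47.9% lies opposite exons of TYMSOS or ENOSF1, of MCM2 23.6% and of GINS4 23.4% opposite other genes, and the strand setting of the counting is not given in the sources used here.
Both E2F genes fell: E2F1 was at 17.3, 16.7 and 16.7 in DAF (log2 -0.63 ± 0.12) and E2F2 at 7.49, 13.5 and 8.95 (log2 -0.57 ± 0.16, edgeR adjusted p = 0.035, called in 9 of 17 alternatives). The members not called in DAF were ORC6 (-0.18 ± 0.09), POLE (-0.40 ± 0.13), RPA1 (-0.31 ± 0.10) and RPA2 (-0.21 ± 0.10).

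Δ22, which lacks the EWS domain, had 0 members higher and 15 lower against iEF, where 0.472% of all genes tested were higher and 0.83% lower. Its median was -0.41 over the members and 0.01 over all genes. In all 3 replicate sets 38 members were lower, with the share of all genes not counted. The 15 were MCM2 to MCM7, MCM10, GINS2, GINS3, DBF4, PCNA, RFC4, RPA3, TYMS and TK1, and all 15 were also lower in DAF against the same iEF libraries.
RPA3 fell most, to 25.9, 21.7 and 22.5 CPM (log2 -0.68 ± 0.11, edgeR adjusted p = 0.0101), and MCM6 gave -0.65 ± 0.09 with 74.1, 61.1 and 77.0 CPM. GINS2 was at 25.3, 23.7 and 24.6, clear of iEF (log2 -0.55 ± 0.09). E2F2 at 9.64, 10.8 and 8.58 lay below every iEF library, but its log2 change of -0.59 ± 0.16 was not called (edgeR adjusted p = 0.0901), and neither was that of E2F1 (-0.39 ± 0.12).
The Δ22 count changed with the libraries and the tool used. It was 1 without Δ22 replicate 2, 1 without Δ22 replicate 3, 3 without iEF replicate 1 and 6 without iEF replicate 3. Over all genes tested these settings called 15 higher and 39 lower, 22 and 49, 24 and 66, and 22 and 89. The main fit called 136 and 239. Without a whole replicate set the member count was 3, 0 or 8, and where it was 0, without the second set, 0 of all 28674 genes tested were called in either direction. It was 23 by DESeq2, with 463 of all genes higher and 615 lower, and 24 with no filter on low counts, with 784 higher and 730 lower.

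WT-EF against DAF compares the wildtype fusion with the tyrosine mutant directly. Here 36 of 39 members were higher in WT-EF and 0 lower, where 12.4% of all genes tested were higher and 16.1% lower, with a median of 0.62 over the members and -0.01 over all genes. In all 3 replicate sets 37 members were higher, with the share of all genes not counted. E2F2 differed most, by 1.98 ± 0.16 (edgeR adjusted p = 2.42e-06), then PRIM1 by 1.07 ± 0.14, GINS2 by 1.06 ± 0.09 and MCM6 by 0.97 ± 0.09. The members not called were RPA1 (0.12 ± 0.10), RRM1 (-0.06 ± 0.10) and TK1 (-0.13 ± 0.13), the latter pair at 0.09 and 0.02 on plain library totals. FLI1 itself was lower in WT-EF than in DAF (log2 -0.47 ± 0.10, edgeR adjusted p = 0.00264); its part in the difference was not tested.
DAF against Δ22 had 0 members called by edgeR in either direction, where 0.948% of all genes tested were higher and 0.379% lower. At an unadjusted p under 0.05 there were 2, with the share of all genes not counted. DESeq2 called 1, with 469 of all genes higher and 308 lower. The limma fit on the ComBat-adjusted table called 0, with 272 of all genes higher and 116 lower. The median was -0.12 over the members and -0.02 over all genes, with 36 of 39 members lower in DAF. By replicate set, 39, 25 and 30 members were lower, with mean log2 differences of -0.23, -0.04 and -0.07. In all 3 sets 21 were lower, so the first set held most of the shift. GINS2 showed the furthest value at -0.32 ± 0.09 (edgeR adjusted p = 0.125) and was called in 2 of 17 alternatives, and MCM7 gave -0.21 ± 0.10. A p that misses the threshold does not show that DAF and Δ22 act alike.

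**Figure D3:**
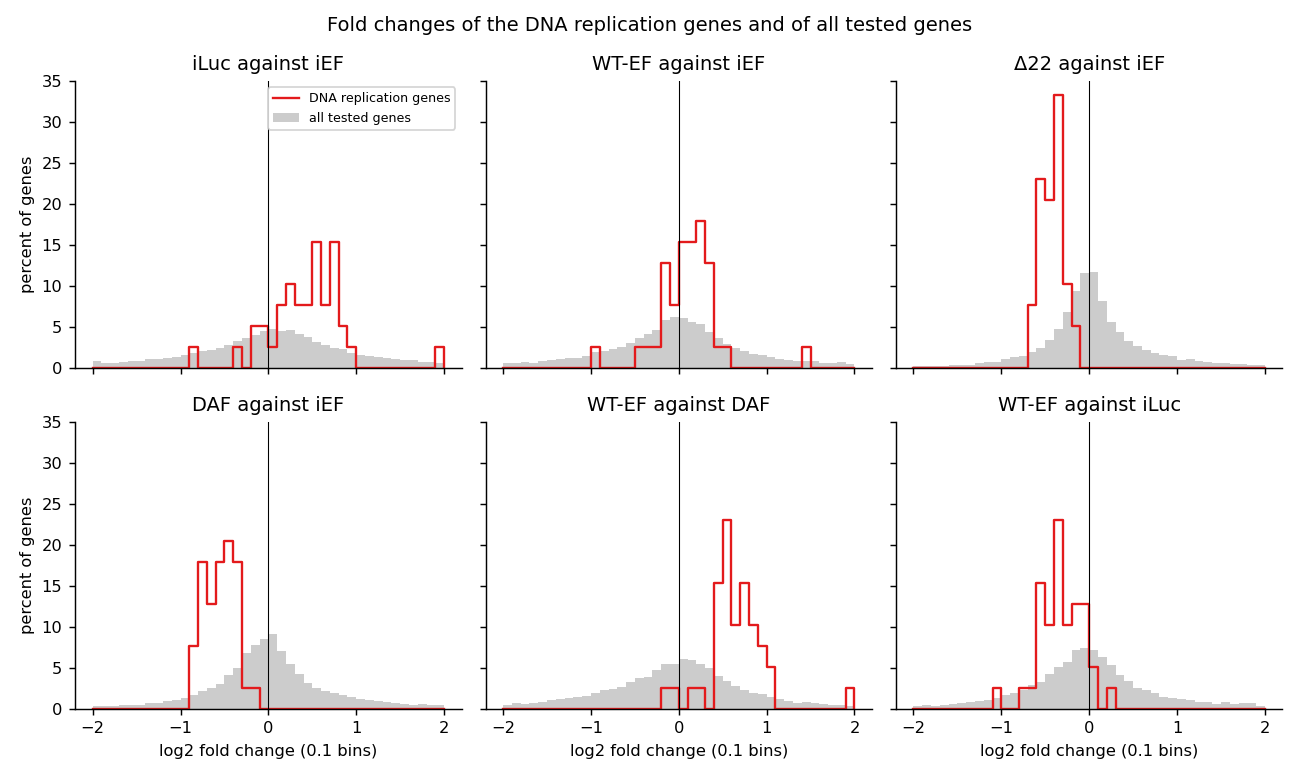
Grey bars give the percent of all 28793 tested genes in each bin of 0.1 log2 and the red line that of the 39 DNA replication genes, for 6 comparisons; values beyond 2 either way are not drawn. The red line sits right of 0 for iLuc against iEF and WT-EF against DAF and left of 0 for Δ22 and DAF.

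The groups by role moved unequally, as the plot of group means shows. Polymerase, primase, clamp and loader genes averaged 0.66 ± 0.03 log2 in iLuc and 0.01 ± 0.08 in iEF, and -0.50 ± 0.04 in DAF. RPA and lagging strand genes spanned less, from 0.37 ± 0.09 in iLuc to -0.32 ± 0.03 in DAF. Nucleotide supply was the one group with its highest mean in iEF, at 0.35 ± 0.22, against 0.11 ± 0.08 in iLuc and -0.28 ± 0.06 in DAF. Within it TK1 and RRM1 had their highest mean in iEF, and RRM2 and TYMS in iLuc. The group's value in iEF replicate 2, 0.10, lay within the iLuc range of 0.04 to 0.20. The pair E2F1 and E2F2 spanned most, from 1.03 ± 0.04 in iLuc to -0.78 ± 0.21 in DAF (SD, n = 3 each). E2F2 carried most of this span: its ratio of the iLuc mean to the DAF mean was 5.73. That of E2F1 was 2.07, near the median of 2.01 over the 39 members.

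**Figure D4:**
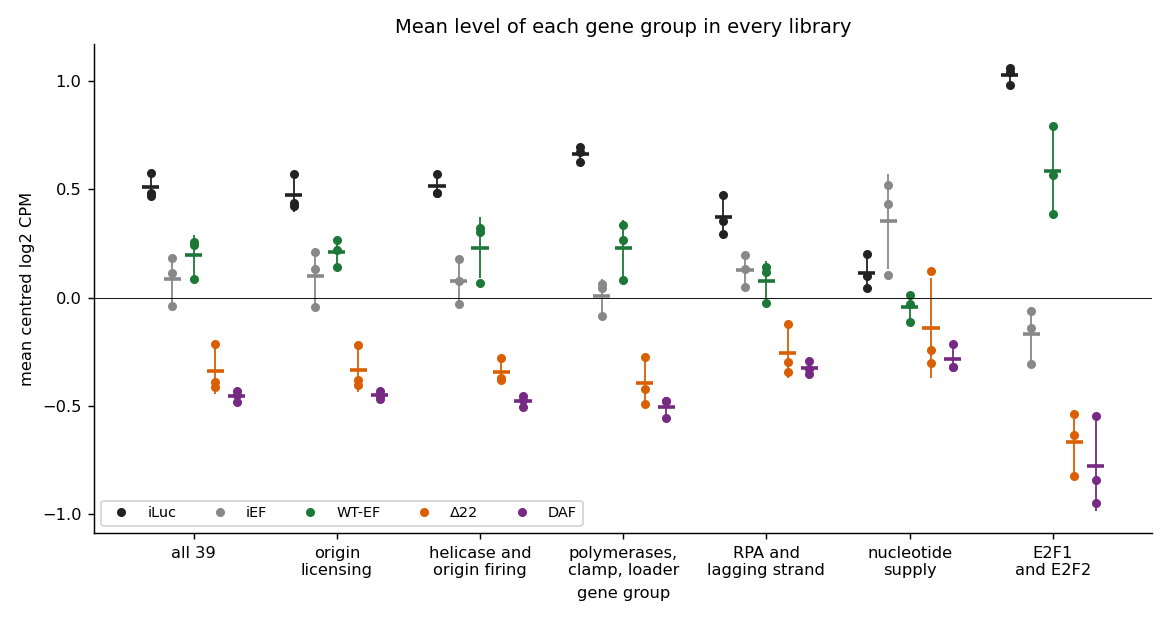
Points are the 15 libraries, each the mean over a gene group of log2 CPM minus the gene mean; bars give the mean and 1 SD of 3 replicates. The 3 iLuc libraries are highest in every group but nucleotide supply, where the iEF mean is highest.

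Levels of subunits were set side by side per length, in RPKM. This is the TMM-scaled CPM divided by the length, in kilobases, of all annotated exons of a gene joined. On this scale MCM3 was the highest MCM subunit in iLuc (131.0) and MCM5 the lowest (26.8), a ratio of 4.88, and the ratio was 3.53 in DAF. The joined exons are 3645 bases for MCM3 and 7268 for MCM5, and before scaling to length the iLuc levels were 477.3 and 194.9 CPM, so the ratio depends on the exons counted. GINS1 was the highest and GINS4 the lowest of the GINS genes in all 5 conditions. The lowest RPA gene was RPA1 in iLuc and RPA3 in the other 4 conditions.
The remaining members are given by their ranges over the 3 libraries of a condition. Of the licensing factors, CDC6 ran from 126.6 to 144.7 CPM in iLuc, 100.8 to 137.8 in iEF and 87.6 to 96.0 in DAF. CDT1 ran from 24.3 to 27.5 in iLuc, 19.5 to 24.4 in iEF and 16.2 to 17.3 in DAF. Both loading factors were called lower in DAF against iEF, but CDC6 in 11 and CDT1 in 6 of 17 alternatives. Neither was called in the other 3 comparisons with iEF or in DAF against Δ22. ORC6, another origin recognition subunit, ran from 89.8 to 97.7 in DAF and 119.3 to 129.7 in WT-EF.
Among the helicase genes, CDC45 ran from 122.9 to 130.03 in iLuc, 82.3 to 100.7 in iEF, 89.8 to 101.4 in WT-EF and 61.4 to 65.7 in DAF, so that WT-EF and iEF overlapped and the others stood clear. CDC7, the origin firing kinase, ran from 62.6 to 63.4 in iEF, 70.6 to 88.8 in WT-EF and 43.5 to 51.3 in DAF, with no overlap. GINS3 ran from 29.8 to 37.1 in iLuc and 29.8 to 37.8 in iEF, which overlap almost wholly, and from 23.4 to 27.1 in DAF.
POLD1, the catalytic subunit of polymerase delta, ran from 47.0 to 48.7 in iLuc, 28.73 to 32.8 in iEF and 23.3 to 23.6 in DAF. POLE2, a polymerase epsilon subunit, ran from 47.7 to 54.2 in iLuc, 29.8 to 34.2 in iEF, 35.6 to 46.4 in WT-EF and 21.8 to 23.98 in DAF. Each of these conditions was clear of the next. POLE, the catalytic epsilon subunit, ran from 136.5 to 141.7 in WT-EF and 101.1 to 118.6 in iEF.
RPA1, the large RPA subunit, was called in no comparison with iEF, and ran from 65.3 to 71.3 in iLuc and 74.1 to 81.3 in iEF. FEN1, which trims lagging strand flaps, ran from 138.4 to 171.9 in iLuc and 153.8 to 181.4 in iEF and was called lower in DAF and in no other comparison with iEF (118.1 to 135.7, log2 -0.43 ± 0.08). RRM2, the small subunit of ribonucleotide reductase, ran from 334.2 to 549.6 over the iEF replicates and from 257.2 to 287.4 in DAF (log2 -0.71 ± 0.16).
Within the MCM ring the order of changes differed between conditions. MCM7 was among the smaller changes in iLuc (0.31 ± 0.10) and the largest fall in DAF. MCM3 had the next largest rise in iLuc after MCM6 and a fall of 0.61 in DAF. A test of these differences between subunits was not made.
The members were also read by whether their windows hold an E2F match, and no test between the 2 sets was made. In DAF against iEF the 19 tested genes with a match had a median log2 change of -0.53, with 18 lower, and the 15 without one had -0.51, with 13 lower. In iLuc against iEF the medians were 0.53 and 0.50, with 15 and 8 genes higher. In WT-EF against iEF they were 0.18 and 0.11, with 6 and 3 higher, in Δ22 against iEF -0.42 and -0.35, with 8 and 4 lower, and in WT-EF against DAF 0.74 and 0.59, with 19 and 12 higher.

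The rest of the replication machinery was read from a list of 44 further genes. In iLuc against iEF 20 were higher and 7 lower, in WT-EF 12 and 7, in Δ22 0 and 7, in DAF 0 and 26, and in WT-EF against DAF 29 and 3. Of all genes tested, 19.5% were higher and 22.1% lower in iLuc, 12.9% and 17% in WT-EF, and 0.472% and 0.83% in Δ22. The shares of all genes were 5% and 6.19% in DAF, and 12.4% and 16.1% in WT-EF against DAF. ORC2, another origin recognition subunit, was at 87.6 ± 0.7 CPM in iLuc and 36.6 ± 5.5 in iEF (SD, n = 3 each). SAMHD1, which breaks down dNTPs, was lower in iLuc (log2 -1.57 ± 0.33) and in WT-EF (-1.36 ± 0.33), as was POLD4, a small subunit of polymerase delta (-2.06 ± 0.28 and -1.70 ± 0.27). ASF1B, a histone chaperone, was lower in WT-EF (-0.86 ± 0.12).
Among 20 genes of the E2F, DP, pocket protein and cyclin E and A families, iLuc had 7 higher and 6 lower, WT-EF 4 and 5, Δ22 0 and 1, and DAF 1 and 11, all against iEF. In WT-EF against DAF 12 were higher and 1 lower. As shares, 35% were higher and 30% lower in iLuc, where all genes tested had 19.5% and 22.1%. In WT-EF the shares were 20% and 25%, where all genes had 12.9% and 17%. In DAF they were 5% and 55%, where all genes had 5% and 6.19%. In Δ22 they were 0% and 5%, where all genes had 0.472% and 0.83%. For WT-EF against DAF they were 60% and 5%, where all genes had 12.4% and 16.1%. SKP2, part of the ligase that removes the inhibitor p27, rose by 1.33 ± 0.12 in iLuc, while cyclin E2 (CCNE2) fell by 1.34 and the repressor E2F7 by 1.07 on the log2 scale. In WT-EF, CCNE2 (-0.83 ± 0.13), TFDP1 (-0.80 ± 0.10) and CCNE1 (-0.67 ± 0.17) were lower. TFDP1 is a DP partner of the E2F proteins.
A list of 20 mitosis genes was read for comparison. Of these, 4 were higher and 2 lower in iLuc against iEF, with a median of 0.06 against 0.48 for the DNA replication genes. The share higher, 20%, was near the 19.5% of all genes tested, and 10% were lower against 22.1%. In WT-EF 1 was higher and 6 lower, or 5% and 30%, where all genes had 12.9% and 17%. In Δ22 0 were called by edgeR, although 20 had an unadjusted p under 0.05, with a median of -0.42. Of all genes tested, edgeR called 0.472% higher and 0.83% lower there, and the share at the unadjusted threshold was not counted. Those higher in iLuc include MYBL2 (0.97 ± 0.09) and BUB1B (0.51 ± 0.10), and KIF20A was lower (-0.41 ± 0.13). In WT-EF, MYBL2 was higher (0.82 ± 0.09) and FOXM1 (-0.78 ± 0.13) and KIF20A (-0.55 ± 0.13) were lower.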

How the data were processed

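RNA was sequenced from 15 A673 libraries, 3 in each of 5 conditions. Paired reads were mapped by the authors with STAR (2.5.1b in the submitters' notes; the study's methods name an earlier release) on build hg19, and raw htseq-count counts per gene were deposited. They also deposited a signal table, the counts after ComBat adjustment of each replicate set, used here as an alternative only, and a table of their own fold changes, standard errors and adjusted p-values, not used. Not used either were 3 count columns of other samples.

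Genes averaging 1 count or more per library were tested with edgeR 4.0.16 (R 4.3.3): TMM scaling, quasi-likelihood fit over all 15 libraries with condition and, since the study adjusted each replicate set for batch, replicate number as a block. Calls have a Benjamini-Hochberg adjusted p under 0.05 over all genes tested, in 7 comparisons, of which the 4 with iEF share its libraries. Means are per condition with SD over n = 3. Alternatives were DESeq2 1.42.0, limma 3.58.1 on the ComBat table, other filters and scalings, no block, and each library or replicate set left out. For limma, negative ComBat values were set to 0, and values were divided by size factors. Those factors were computed from rounded values, and log2 was taken with a pseudocount of 1. The fit was tested on simulated data: fold changes came back close to those put in and few unchanged genes were called, but most genes given the smaller of the changes put in were missed. A first, stricter requirement on the share recovered over both sizes was not met, and the requirement was then reset to the larger size. Replicates differed by more than counting noise, so none was merged.

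All 40 members were described by role; named genes of the other lists are the called ones with the largest changes, up to 3 per list in iLuc and WT-EF against iEF, and values of named genes in further comparisons were added after they were seen. The members and lists were chosen with earlier results of these data known. Gene names came from a supplied table. Exon lengths and overlaps used GENCODE on GRCh37, and promoter windows RefSeq on GRCh38.p14. The counts' depth, 28659475 to 41859880 per library, leaves the spread between replicates as the main error.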

Additional observations from a re-analysis of the deposited data

Results flagged for a closer look

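For 8 DNA replication genes WT-EF and DAF moved apart from the same iEF libraries: each was higher with WT-EF and lower with DAF, and the direct comparison of WT-EF with DAF was past the threshold (edgeR, all genes tested). These genes were picked by calls in opposite directions, so that a difference in the direct comparison was largely fixed by the choice, and 36 of the 39 members passed it. The log2 fold changes, WT-EF against DAF, were 0.95 for ORC1, 0.90 for MCM10, 0.86 for GINS1, 0.71 for CDC7, 1.07 for PRIM1, 0.78 for POLE2, 0.71 for RFC3 and 1.98 for E2F2. The highest edgeR adjusted p among them was 0.000113. Groups of 3 libraries are too small for the test of a lone far sample.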

How the results depend on the processing

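Leaving out one library or replicate set at a time gave 21 to 29 members called in iLuc against iEF, 4 to 17 in WT-EF against iEF, 0 to 15 in Δ22 against iEF, 15 to 31 in DAF against iEF, 7 to 19 in WT-EF against iLuc, 33 to 36 in WT-EF against DAF and 0 in DAF against Δ22. Calls over all genes tested changed in these settings too. In iLuc against iEF they ran from 3689 to 4799 higher and from 4873 to 6054 lower. WT-EF against iEF had 2180 to 3619 and 3441 to 4409, and Δ22 against iEF 0 to 270 and 0 to 359. DAF against iEF had its fewest, 492 and 576, without the second replicate set and its most, 1329 and 1418, without the third. WT-EF against iLuc had 1121 to 4291 and 698 to 2718, and WT-EF against DAF 2148 to 3496 and 3097 to 4434. DAF against Δ22 had 75 to 321 and 9 to 186. With an absolute log2 fold change over 1 required as well, the member counts were 1, 1, 0, 0, 1 and 3 in the first 6 comparisons above, since most members changed by less than 2-fold. The share of all genes that passed this stricter cutoff was not counted. Plain library totals gave 27 calls in WT-EF against iEF; they moved the median of all genes to 0.25 in iLuc against iEF, 0.22 in WT-EF against iEF and 0.15 in WT-EF against DAF, and the members' mean difference to 0.636 in iLuc and 0.338 in WT-EF from 0.423 and 0.108. DESeq2 gave 23 calls in Δ22 against iEF and 1 in DAF against Δ22, no filter on low counts gave 24 in Δ22 against iEF, and a fit of the 6 libraries compared gave 12 in WT-EF against iLuc and 2 in DAF against Δ22; the cause was not tested. Changes of sign were looked for only in members called in a comparison and in some uncalled members chosen by name. In WT-EF against iEF these were 16 of the 39 members, and the signs of the rest were not followed. Among those followed, values that changed sign were not called either way. On library totals they were PCNA in WT-EF against iEF (0.0156) and, in WT-EF against DAF, RRM1 (0.0871) and TK1 (0.0181). The TK1 value ranged from -0.241 to 0.0633 as libraries or replicate sets were left out.

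Without the replicate number as a block the member counts were 29, 10, 11, 31, 17, 35 and 0, so the pairing moved no member count by over 1.5 times. Calls over all genes tested, in the same order, were 5253 higher and 6113 lower, 3290 and 4448, 50 and 125, and 1074 and 1305. The last 3 comparisons had 2625 and 1957, 3087 and 4142, and 147 and 30. With the block, Δ22 against iEF had 136 and 239 and DAF against Δ22 had 273 and 109, so the block mattered more there. Libraries of the same number deviated together only in part: over 30 pairs the median correlation was 0.147, with 19 over 0.1, against -0.0797 over 60 pairs with different numbers, and 11 of 15 libraries matched best with their own number. With 3 replicates and small changes, a member not called is not shown to be unchanged.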
